A study of Rattus norvegicus with 40 samples.

Results

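Cytosolic ribosomal protein genes encode the proteins that, with ribosomal RNA, form the large (Rpl) and small (Rps) subunits of the ribosome that translates messenger RNA in the cytosol. Their products are needed in near-equal amounts. Many of their transcripts in mammals start with a C followed by a run of pyrimidines, the 5′ terminal oligopyrimidine (TOP) tract, through which mTOR and the RNA-binding protein Larp1 control their translation. Heart growth under pressure load is known to go along with more ribosome production. Heart and skeletal muscle also make Rpl3l, a muscle paralog that can take the place of Rpl3 in the ribosome.

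The members were all array probes whose annotated gene symbol starts with Rpl or Rps and a digit, or is Rpsa, Rplp0, Rplp1 or Rplp2, without the Rps6k kinases. They came to 133 probes of 72 genes, among 14871 named genes on the array. For the tests, 70 genes qualified: 40 of the large subunit, 25 of the small subunit and 5 paralogs or other symbols (Rpl3l, Rpl7l1, Rpl36al1, Rpl37l1 and Rps19bp1). Rps19bp1, a nucleolar protein that binds Rps19, is a member by its letters only and is no ribosomal protein. In the gene table, Rpl36al1 carries the older name Rpl36al and Rpl37l1 the older name Rpl37. Rpl17-ps16 and Rpl39l1 had values in too few animals to be tested. All 70 tested genes had a value in each of the 24 animals, so the filter on missing values let none of them through by 1 group alone.

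Sprague-Dawley rats, all male, gave right ventricle RNA in 4 groups of 6. Per the labels, 1 group had a single injection of 20 mg/kg SU5416, a blocker of the VEGF receptor, then 4 weeks at 10% oxygen, and then carvedilol, a blocker of adrenergic receptors, at 15 mg/kg daily for 4 weeks in room air (SuHx + carvedilol). The SuHx group had the same injection and hypoxia followed by 2 weeks in room air, the hypoxia group had 4 weeks at 10% oxygen only, and the normal group had neither. SU5416 with hypoxia is a model of severe pulmonary hypertension with right heart failure. The SuHx + carvedilol rats were thus also killed later after the hypoxia than the SuHx rats, and the groups differ in time as well as in drug. Each value is the log2 ratio of an animal's RNA (Cy5) to the same reference, a pool of RNA from 14 rat cell lines (Cy3), on 40 arrays of 2 colours, with 1 to 5 arrays per animal averaged. A level here is such a ratio, so that levels of different genes do not rank them by abundance. The number of arrays limits the precision.

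Sample RNA lay far above the reference for the markers of heart muscle cells fixed for this work: the mean over the 10 markers was 5.05 to 6.60 in SuHx + carvedilol animals, 4.28 to 5.38 in SuHx, 3.70 to 4.74 in hypoxia and 3.91 to 5.10 in normal animals. All 10 were above the reference in every group. Fewer probes had a value in the 3 disease groups than in normal animals: 24596 to 29782 in SuHx + carvedilol, 25594 to 27845 in SuHx and 21390 to 26725 in hypoxia, against 26451 to 33696 in normal. In whole tissue, fewer cells of a type and less RNA per cell cannot be told apart.

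To show what the transcript starts look like, the 30 bases around the annotated start were read from the RefSeq table of promoters (GRCr8), which held 59 of the 72 members. The sequences below hold 10 bases before and 20 bases from the start base, on the gene's own strand, and capitals mark the unbroken run of C and T that begins at the start base. Rpl10, Rpl34, Rpl35a, Rplp0 and Rps26 are shown for their TOP-like starts, and Rpl18, Rps13 and Rpl3l, which matter in the results, for starts without one.
Rpl10 (chrX:157205840-157205869, +): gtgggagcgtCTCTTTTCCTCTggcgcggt
Rpl34 (chr2:221962264-221962293, -): tccttttcctCTTCCggggacggtgcttag
Rpl35a (chr11:81235002-81235031, -): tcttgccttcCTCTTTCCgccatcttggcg
Rplp0 (chr12:46718371-46718400, -): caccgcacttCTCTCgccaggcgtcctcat
Rps26 (chr7:1643385-1643414, -): ccgccgggtcCTCTTTCgagtcttggctcc
Rpl18 (chr1:105325260-105325289, +): acctggtctagcaggaggcgccatcatggt
Rps13 (chr1:180009641-180009670, -): ttcctacctcgttctctctttgcttccaga
Rpl3l (chr10:14258436-14258465, +): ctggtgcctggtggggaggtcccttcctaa

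A TOP-like start, searched on the transcribed strand as a C at the start base followed by at least 4 bases that are each C or T, was present in 22 of 59 members, or 37.3%. The same was true of 2.52% of 21851 protein-coding genes and 2.63% of all 33469 genes in the table. Among the members it was found in 15 of 33 large subunit genes, 7 of 21 small subunit genes and none of the 5 paralogs or other symbols. The search counts only a tract at the annotated base, and in Rps13 a run of T and C begins just after it. The median log2 change in hypoxia against normal was 0.08 for the 22 tested members with a TOP-like start and -0.01 for the 36 without it. In SuHx + carvedilol against normal the medians were -0.26 with and -0.28 without it. No test was made of these pairs.

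Most members lay below the reference. Of the 70 genes, the group mean was below 0 for 66 in SuHx + carvedilol, 61 in SuHx, 58 in hypoxia and 65 in normal animals, and for 54 in every group. Rplp0, which encodes the stalk protein that carries the P1 and P2 proteins on the large subunit, averaged -1.75 ± 0.26 in SuHx + carvedilol, -1.50 ± 0.17 in SuHx, -1.71 ± 0.28 in hypoxia and -1.56 ± 0.24 in normal animals (SD, n = 6 each). Rpsa, the small subunit protein also known as the laminin receptor, averaged -1.58 ± 0.13, -1.50 ± 0.27, -1.94 ± 0.24 and -1.55 ± 0.15 in the same order of groups. Rpl3l stood apart, with means between 3.77 in normal and 4.03 in SuHx + carvedilol animals. It was the only member whose mean exceeded the reference several-fold in every group. That mean joins 2 probes at very different levels, given below, and 1 of them was below the reference in at least 1 SuHx + carvedilol animal.

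The median over the 70 genes, taken in each animal, ran from -1.20 to -0.61 in SuHx + carvedilol, from -0.96 to -0.37 in SuHx, from -1.24 to -0.21 in hypoxia and from -0.92 to -0.22 in normal animals. The ranges of all 4 groups overlap. Hypoxia animal 5, at -1.24, lay below the other hypoxia animals, the next of which was at -0.50. Normal animal 4, at -0.22, was the highest of its group. Hypoxia animal 5 was low for both subunits, with a median of -1.25 for the large and -1.23 for the small subunit. This animal had 1 array, on which members of both subunits had nearly the same level. Rpl14 and Rpl23 were at -1.238, Rps16 at -1.239 and Rps6 at -1.243, so its medians lie at a level that several genes shared. The cause of this was not tested. The subunits lay farthest apart in SuHx animal 4, with -0.36 for the large and -0.75 for the small subunit.

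**Figure D1:**
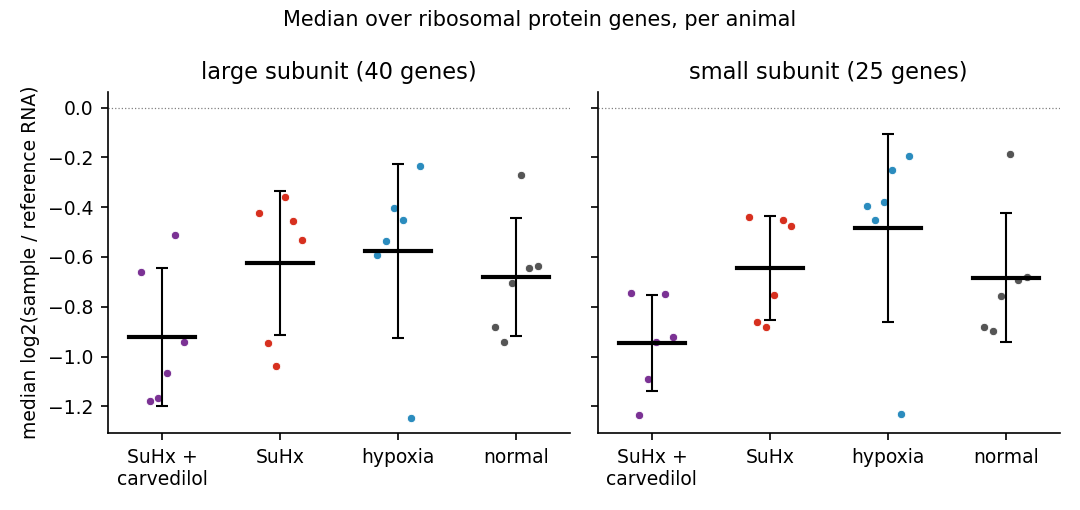
Median log2 ratio of sample to reference RNA over the 40 large subunit genes (left) and the 25 small subunit genes (right) in each animal, by group. Points are animals, bars are the group mean and SD (n = 6 each). The SuHx + carvedilol animals lie lowest on average, and 1 hypoxia animal lies near -1.24 in both panels.

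The spread between single arrays of the same animal was as large as that between animals. The animal values are means of 1 to 5 arrays, and averaging lowers their spread. Over the 103 member probes with a value on every array, the array median differed by up to 0.96 between the arrays of 1 animal (SuHx animal 4, at -0.81 and 0.16). SuHx animal 1 had 5 arrays, whose medians ran from -0.49 to 0.36. By contrast, the 3 arrays of SuHx + carvedilol animal 3 ran from -1.20 to -1.12. The SD of this median was 0.359 between arrays of an animal (9 animals with several arrays) and 0.295 between animals of a group. Single probes behaved likewise, with a median SD of 0.411 between arrays of an animal and 0.390 between animals. For Rplp1, which has 10 spots of 1 probe, the SD between the spots of an array had a median of 0.016. It ran from 0.00018 to 0.68 over the 40 arrays.

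**Figure D2:**
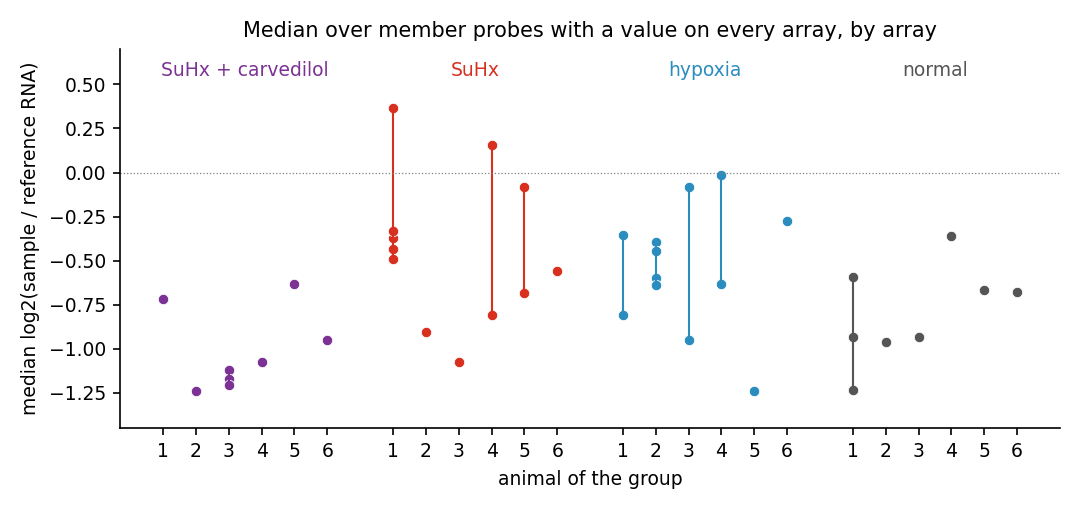
Median log2 ratio over the 103 probes of ribosomal protein genes with a value on every array, for each of the 40 arrays, by group and animal. Points are arrays and lines join the arrays of 1 animal. The arrays of SuHx animal 4 are 0.96 apart and those of SuHx + carvedilol animal 3 lie close together.

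Members varied together between animals of a group. After group means were removed, 2 members had a median correlation of 0.38 over the 24 animals, against 0.01 for pairs among 6279 genes with no missing animal and 0.23 for mitochondrial ribosomal protein genes. Pairs of 1 large and 1 small subunit gene had 0.46, close to the 0.45 of pairs within the large and 0.41 within the small subunit. The members share their arrays, and between arrays of the same animal, where the RNA was the same, the median correlation of member probes was 0.37, against 0.13 for all 3683 named probes on every array. In animals of the hypoxia, normal and SuHx groups, several members had nearly the same level. In hypoxia animal 5, Rpl14, Rpl23, Rps16, Rpl35, Rps6 and Rpl8 all lay between -1.244 and -1.238. In normal animal 4, Rpl14, Rpl23, Rpl35 and Rps6 were all at 0.362. Rpl8, Rpl14, Rpl23, Rpl35, Rps6, Rps14 and Rps16 lay between -0.275 and -0.271 in SuHx animal 2. They lay between 0.025 and 0.030 in SuHx animal 6. Rpl8, Rpl23, Rpl35, Rpl41 and Rps6 lay between 0.668 and 0.678 in hypoxia animal 6. The part of such shared levels in the correlations, in the animal medians and in the comparisons between groups was not tested. These correlations are descriptions of these animals and arrays.

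Hypoxia against normal asked what low oxygen alone did. Of 70 members, 3 passed the test (limma, adjusted p under 0.05 over all 9775 tested genes), 2 higher and 1 lower, while 12.4% of all tested genes passed, 0.890% higher and 11.5% lower. The median log2 change of the members was 0.11, with 40 of 70 above 0, beside -0.39 over all tested genes. The groups did not overlap for 1 member above and 1 below, while this held for 7.06% of all genes, 0.716% above and 6.34% below. With quantile normalisation the members' median was 0.22, that of all genes shifted to -0.29, and the calls were 6 higher and 0 lower. With arrays scaled to equal spread they were 5 higher and 0 lower.

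Rps25, a small subunit protein used for initiation at internal ribosome entry sites, had levels from -0.87 to -0.19 (median -0.58) in hypoxia and from -1.56 to -0.93 (median -1.32) in normal animals. The 2 groups did not overlap. It rose by 0.74 ± 0.17 on the log2 scale (SE), or 1.68-fold, with an adjusted p of 0.0064. Of its 3 probes, 2 passed on their own with changes of 0.92 and 0.94, and the other gave 0.37 (adjusted p = 0.18). The call was lost, with the change still above 0, when only the probe with the highest ratio was used or only the 2 groups were fitted.

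Rpl23a, which lies at the exit of the peptide tunnel, had levels from -0.89 to 0.05 in hypoxia and from -1.56 to -0.43 in normal animals. The groups overlapped, with normal animal 4 and hypoxia animals 1, 2 and 4 in the shared range. Its rise of 0.62 ± 0.20 had an adjusted p of 0.043. The call was lost when any 1 of 8 animals was left out, while the change stayed between 0.52 and 0.75. Over 14 processing alternatives the change ran from 0.43 to 0.91, and the call was lost in 6. These included a filter of 2 animals per group, the probe with the highest ratio and only the 2 groups fitted. Rpl18, another large subunit protein, fell in hypoxia: its levels ran from -2.07 to -1.24 (median -1.64), against -1.21 to -0.73 (median -0.98) in normal animals, without overlap. The change was -0.65 ± 0.17 (adjusted p = 0.0141), a fold of 0.635, and both of its probes passed alone, at -0.59 and -0.72. This call was lost with quantile normalisation, with equal spread, with only the 2 groups fitted and with 2 hypoxia arrays, those poorest in values, left out.

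Other members reached changes as large without passing. Rpl32 differed by 0.75 ± 0.35 (adjusted p = 0.163), Rpl36a by 0.70 ± 0.34, Rpl39 by 0.66 ± 0.31 and Rps14 by 0.67 ± 0.24 (adjusted p = 0.068). In the opposite direction, Rpl7l1, a relative of Rpl7, differed by -0.85 ± 0.35 (adjusted p = 0.11) and Rplp1, a P-stalk protein, by -0.83 ± 0.52 (adjusted p = 0.31). Rplp1 ran from -3.05 to 0.42 in hypoxia animals, so that its spread within the group exceeds the difference. Without hypoxia animal 5, the members' median was 0.23 and 5 members passed, 4 higher and 1 lower.

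SuHx against normal compared the failing with the healthy ventricle. No member passed (limma), beside 0.941% of all genes. An unadjusted p under 0.05 was found for 3 of the 70 members, beside 1227 of all 9775 genes. The median change was 0.01, with 37 of 70 above 0, beside -0.12 over all genes. The 2 groups overlapped for every member, while they did not for 5.52% of all genes, 1.31% above and 4.21% below. The 3 with an unadjusted p under 0.05 were Rpl35a (-0.65 ± 0.23, adjusted p = 0.192), Rpl36al1 (-0.51 ± 0.20) and Rpl21 (0.50 ± 0.22). The interval for Rplp0 shows what these 6 animals against 6 could miss: the change was 0.06 with a 95% interval of -0.30 to 0.42. For Rps6, the small subunit protein that S6 kinases phosphorylate, it was -0.04 with an interval of -0.77 to 0.68. But Rps6 was at -0.27, -0.37, 0.30, 0.35 and 0.03 in SuHx animals 2 to 6, and Rpl14 was at the same rounded levels. The Rps6 interval may thus not measure Rps6 RNA alone, which was not tested. With animal weights, 4 members passed, all higher.

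SuHx against hypoxia asked what SU5416 and the 2 weeks in room air added. Here 1 member rose and 2 fell, while 11.6% of all genes passed, 9.78% higher and 1.79% lower. The median change was -0.03, beside 0.26 over all genes. Groups did not overlap for 1 member, below, while this held for 7.35% of all genes, 6.04% above and 1.31% below. This comparison shares the hypoxia animals with the one above and its values are no independent support. Rps25 had -1.41 to -1.05 in SuHx, against -0.87 to -0.19 in hypoxia animals, again without overlap, and a change of -0.69 ± 0.17 (adjusted p = 0.0112). Rpl18 ran from -1.38 to -0.62 in SuHx and from -2.07 to -1.24 in hypoxia animals, a rise of 0.63 ± 0.17 (adjusted p = 0.0183). The Rpl18 call was lost with quantile normalisation, with equal spread, with 2 hypoxia arrays, those poorest in values, left out, and without SuHx animal 1. The Rps25 call was lost with the probe of the highest ratio, and all 3 calls of this comparison were lost with only the 2 groups fitted.

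Rps29, a small zinc-binding protein of the small subunit, had levels from -0.56 to 0.23 (median -0.09) in SuHx and from -0.05 to 1.49 (median 0.66) in hypoxia animals. It fell by 0.81 on the log2 scale (SE 0.24, adjusted p = 0.0304), and the call was lost when any 1 of 4 animals was left out. The Rps29 call also ended with a filter of 2 animals per group, with animal weights and without the 2 hypoxia arrays poorest in values. With quantile normalisation the calls of this comparison were 0 higher and 4 lower, and with equal spread also 0 and 4. The median of all genes then was 0.16 with quantile normalisation. Without hypoxia animal 3, 5 members passed, 2 higher and 3 lower.

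**Figure D3:**
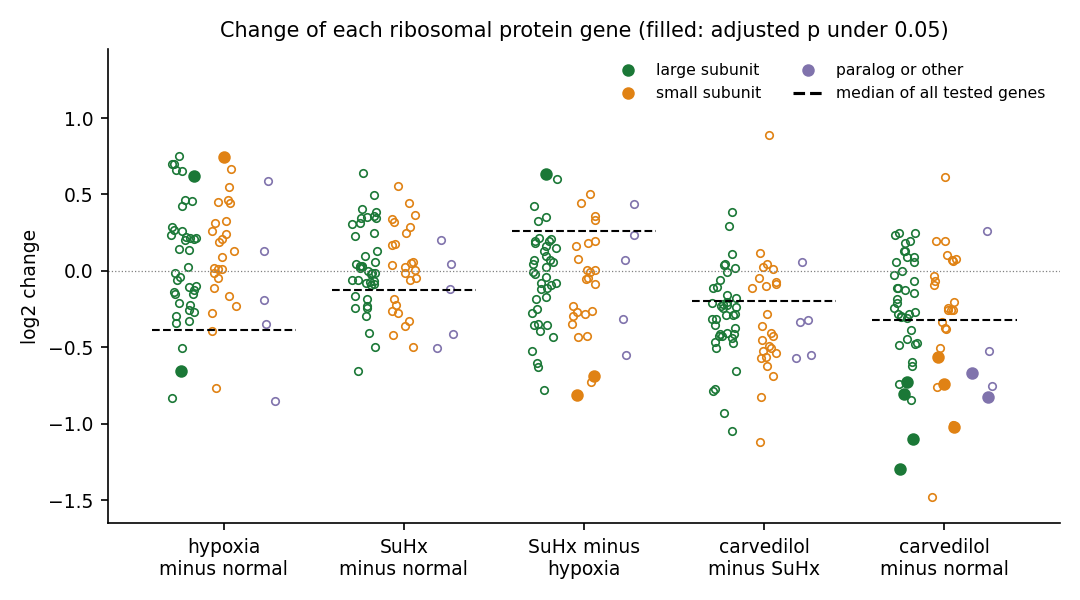
Log2 change of each of the 70 tested genes in the 5 comparisons, by class. Filled points passed the limma test (adjusted p under 0.05 over all 9775 genes), open points did not, and dashed lines mark the median of all tested genes. Members lie on both sides of 0 in the first 3 comparisons and mostly below 0 in the 2 with carvedilol.

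SuHx + carvedilol against SuHx asked what carvedilol, with its further weeks in room air, changed in the diseased ventricle. No member passed (limma), beside 0.931% of all genes. An unadjusted p under 0.05 was found for 18 of the 70 members, beside 1639 of all 9775 genes. Of the 70, 58 changes were below 0, with a median of -0.31, beside -0.20 over all genes. Groups did not overlap for 3 members, all below, beside 3.55% of all genes, 1.40% above and 2.15% below. Rps13, a small subunit protein, had -1.57 to -1.01 in SuHx + carvedilol and -0.82 to -0.66 in SuHx animals, a change of -0.57 ± 0.15 (adjusted p = 0.076). Rps15a (-0.68 ± 0.23) and Rps19bp1 (-0.55 ± 0.18) were the other 2. Without SuHx + carvedilol animal 2, 2 members passed, 1 in each direction.

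Against normal animals, SuHx + carvedilol ventricles had 9 lower members and none higher, while 11.0% of all genes passed, 2.27% higher and 8.75% lower. The 9 are 12.9% of the 70 members. The median change of the members was -0.26, with 51 of 70 below 0, and that of all genes was -0.32. Groups did not overlap for 7 members, all below, or 10.0% of them, beside 9.84% of all genes, 2.15% above and 7.69% below. By class, the 9 were 4 large subunit genes, 3 small subunit genes and 2 of the paralogs or other symbols.

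Rps29 ran from -0.95 to -0.09 (median -0.72) in SuHx + carvedilol and from -0.08 to 0.88 (median 0.36) in normal animals. It fell by 1.02 on the log2 scale (SE 0.24, adjusted p = 0.0087), to 0.493 of the normal ratio, without overlap. Rpl34, a large subunit protein with a TOP-like start shown above, ran from -1.28 to -0.71 (median -1.14) in SuHx + carvedilol and from -0.67 to 0.07 (median -0.35) in normal animals. All 6 treated animals were below all 6 normal ones, with a change of -0.73 ± 0.19 (adjusted p = 0.0157).

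Rpl36al1, the paralog of Rpl36a, had levels from -0.55 to 0.21 in SuHx + carvedilol, against 0.08 to 1.08 in normal animals. The overlap came from SuHx + carvedilol animal 6, at 0.21. Its change was -0.83 ± 0.20 (adjusted p = 0.0102), and its 2 probes gave -0.83 and -0.82. Rpl35a, mutated in some patients with Diamond-Blackfan anaemia, had -1.31 to -0.87, against -0.997 to 0.59 in normal animals, and a change of -0.81 ± 0.23 (adjusted p = 0.0246). Leaving out normal animal 4, or normal animal 6, ended that call.

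Rps15a ran from -1.03 to -0.72 in SuHx + carvedilol and from -0.64 to 0.56 in normal animals, with a change of -0.74 ± 0.23 (adjusted p = 0.0438). Although the groups did not overlap, the call was lost when any 1 of 9 animals was left out, and the 2 probes gave -1.06 and -0.42. Rps13, the smallest of the 9 changes and named after its value was seen, had -1.57 to -1.01, against -1.13 to -0.49 in normal animals (-0.57 ± 0.15, adjusted p = 0.02). Its call was lost with quantile normalisation, with equal spread, with a filter of 2 animals per group and without normal animal 2. Rps19bp1 had -0.90 to -0.42, against -0.11 to 0.08 in normal animals, whose values lay within 0.2 of each other (-0.67 ± 0.18, adjusted p = 0.0206).

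**Figure D4:**
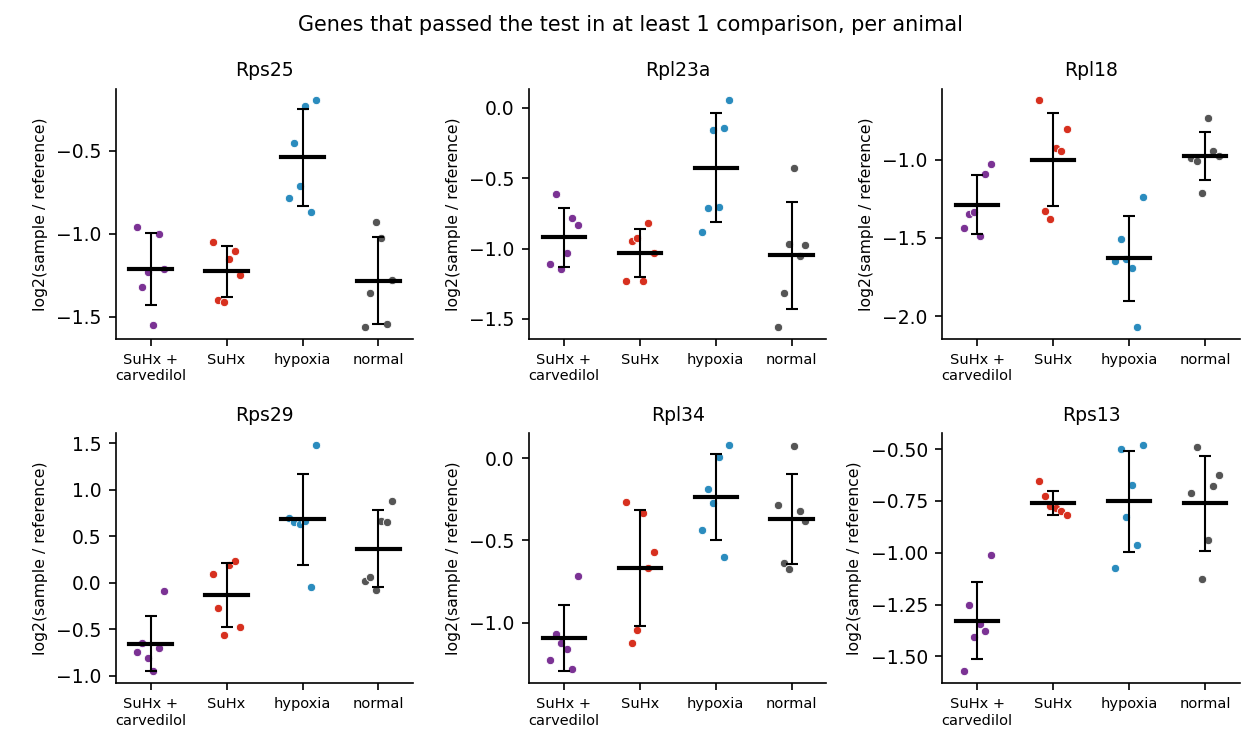
Log2 ratio of sample to reference RNA for Rps25, Rpl23a, Rpl18, Rps29, Rpl34 and Rps13, by group. Points are animals (arrays averaged), bars are the group mean and SD (n = 6 each). Rps25 is highest and Rpl18 lowest in hypoxia animals, and Rps29, Rpl34 and Rps13 are lowest in SuHx + carvedilol animals.

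The 2 largest called changes rested on probes with missing arrays. Rpl4 had a change of -1.29 ± 0.31 (adjusted p = 0.0088) over 3 probes. Its probe with a value on all 40 arrays ran from -2.28 to -1.15 in SuHx + carvedilol and from -2.05 to -0.91 in normal animals, a change of -0.33 that did not pass. Its probes on 38 arrays gave -1.34 and -2.05, with SuHx + carvedilol animals as low as -5.45. Rpl30 had -1.10 ± 0.27 (adjusted p = 0.0121) over 2 probes. The probe on all arrays ran from -1.84 to -1.57 in SuHx + carvedilol and from -1.70 to -0.81 in normal animals, and changed by -0.43 without passing, while the probe on 35 arrays gave -1.98.

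All 6 SuHx + carvedilol animals and hypoxia animals 5 and 6 had animal numbers over 100 in the labels, and the other 16 animals had lower ones. The labels do not call this a batch. With it as a covariate, which then rests on 2 against 4 hypoxia animals, no member passed in SuHx + carvedilol against normal and the median change was 0.05. SU5416, the weeks of hypoxia, the drug, the time after hypoxia and this numbering cannot be told apart for these calls. The same covariate also ended the calls of Rpl23a in hypoxia against normal and of Rps29 in SuHx against hypoxia. With only technical array 1 of each animal, the calls of Rpl34, Rpl35a, Rps15a, Rps19bp1, Rpl4 and Rpl30 were lost. Heart muscle markers also differed: 7 of 10 were higher in SuHx + carvedilol than in normal animals, beside 2.27% of all genes, with a median change of 1.89. The change was below 0 for 2 of the 10, the lowest at -1.62. Against SuHx, 3 of 10 were higher, beside 0.307% of all genes, with a median of 1.47. Of the macrophage markers 3 of 9, of the erythroid markers 2 of 4 and of the atrial markers 2 of 6 were also higher than in normal animals, as were 1 of 8 endothelial and 1 of 7 smooth muscle and pericyte markers. Of the fibroblast markers 0 of 9 and of the lymphocyte markers 0 of 5 passed in that comparison. The mean over the macrophage markers was 2.06 to 2.79 in SuHx + carvedilol and 1.20 to 1.80 in normal animals, and that over the erythroid markers 5.66 to 7.29 in SuHx + carvedilol and 4.68 to 5.64 in normal animals, neither with overlap. The part of these markers in the ribosomal protein results was not tested.

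Rpl3l gave opposite answers from its 2 probes. The probe with a value on all 40 arrays had levels from 5.68 to 7.01 (median 6.27) in SuHx + carvedilol, from 5.26 to 6.10 (median 5.72) in SuHx, from 5.00 to 6.98 (median 5.35) in hypoxia and from 4.28 to 5.31 (median 4.81) in normal animals. All SuHx + carvedilol animals were above all normal ones, and the change was 1.48 ± 0.31 (adjusted p = 0.004 in the fit of single probes). SuHx differed from normal by 0.83 ± 0.31 (adjusted p = 0.227) and hypoxia by 0.75 ± 0.31 (adjusted p = 0.117). The probe on 38 arrays had 5 of 6 SuHx + carvedilol animals, from -0.34 to 2.71, against 1.37 to 4.10 in normal animals, a change of -1.31 ± 0.53 (adjusted p = 0.118). Averaged, Rpl3l changed by 0.26 ± 0.31 and was not called. Rpl3 itself, whose product helps to shape the peptidyl transferase centre, changed by -0.21 ± 0.23 (adjusted p = 0.604), with levels from -2.42 to -1.29 in SuHx + carvedilol and from -1.91 to -0.93 in normal animals.

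**Figure D5:**
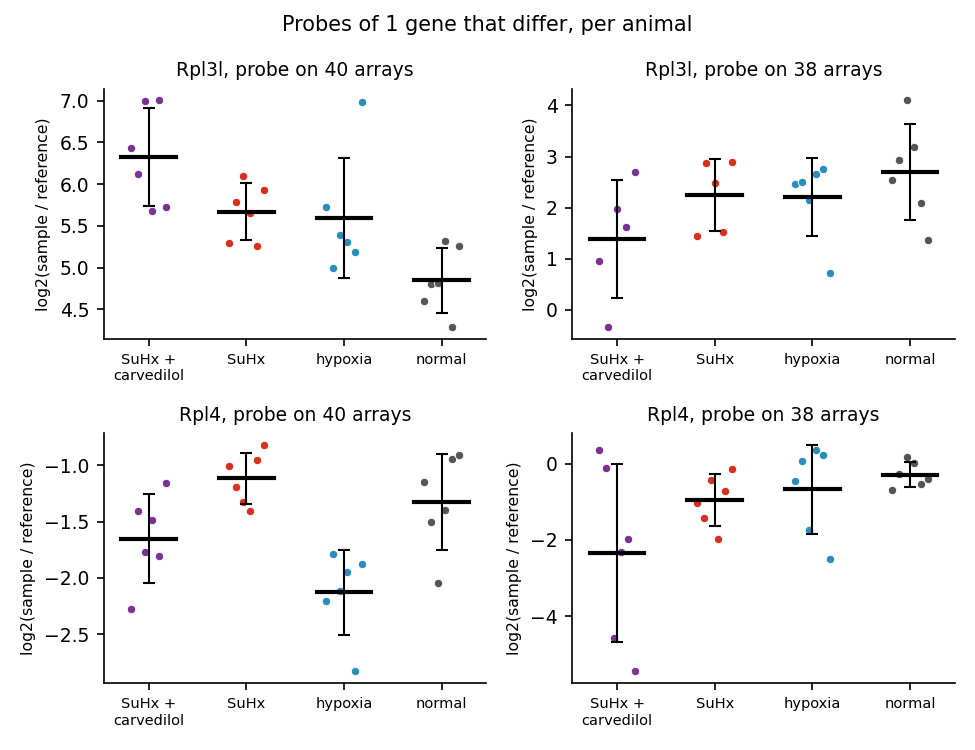
Log2 ratio of sample to reference RNA for 2 probes of Rpl3l (top) and 2 of the 3 probes of Rpl4 (bottom), by group, with the number of arrays on which each probe had a value. Points are animals with a value, bars are the mean and SD. The Rpl3l probe on 40 arrays is higher in SuHx + carvedilol than in normal animals, and the probe on 38 arrays is lower on average.

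Such disagreement was common. Of the 38 tested members with several tested probes, the probes differed in sign for 14 when hypoxia was set against normal animals, for 22 when SuHx was set against normal animals and for 17 when it was set against hypoxia animals. With SuHx + carvedilol the numbers were 13 against SuHx and 16 against normal. None of the called members was among them in the comparison where it was called. In all, 33 members disagreed at least once: Rpl4, Rpl5, Rpl7, Rpl7a, Rpl9, Rpl10, Rpl13, Rpl13a, Rpl15, Rpl19, Rpl21, Rpl23a, Rpl27, Rpl29, Rpl31, Rpl35a, Rpl37l1, Rpl3l, Rplp1, Rps2, Rps3, Rps7, Rps10, Rps12, Rps15, Rps15a, Rps19, Rps20, Rps23, Rps24, Rps25, Rps26 and Rpsa. Ribosomal protein genes have many processed copies in mammalian genomes, and which of them a probe also binds was not examined here. Single probes also passed where the gene did not. A probe of Rpl29 was lower in SuHx + carvedilol, from -1.68 to -0.99, than in normal animals, from -0.36 to 0.57 (-1.23 ± 0.19, adjusted p = 0.000312), while the mean of the gene's 4 probes changed by -0.47 ± 0.16 (adjusted p = 0.062).

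For Rps24, 1 probe on 34 arrays was higher in 5 SuHx + carvedilol animals, from -1.29 to 0.81, than in 6 SuHx animals, from -3.71 to -1.60 (2.77 ± 0.45, adjusted p = 0.0091). The 2 probes on all arrays gave -0.09 and 0.23 and did not pass. In hypoxia against normal, single probes of Rpl4, Rpl5, Rpl29 and Rpsa were lower, by -0.80, -0.80, -0.79 and -0.66, with adjusted p of 0.0251, 0.0228, 0.009 and 0.0165. These single probes of Rpl29 and Rps24 were picked after their values were seen.

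A fixed panel covered chosen members, among them paralogs, the P-stalk proteins and some members with known roles outside the ribosome. Rpl5 and Rpl11, which with 5S ribosomal RNA bind Mdm2 and stabilise p53 when ribosome assembly fails, changed by -0.27 ± 0.21 and -0.28 ± 0.27 in SuHx + carvedilol against normal, neither passing. In SuHx against hypoxia, Rpl5 changed by 0.60 ± 0.21 (adjusted p = 0.07) and Rpl11 by -0.01 ± 0.27. Rpl22, which binds Epstein-Barr virus RNA and has a role in T cell development in mice, had -1.38 to -1.14 in SuHx + carvedilol, against -0.93 to -0.10 in normal animals. The groups did not overlap and the change was -0.60 ± 0.20, but the adjusted p was 0.0587. Rps19, the gene most often mutated in Diamond-Blackfan anaemia, changed by -0.38 ± 0.20 (adjusted p = 0.229). Rpl13a, part of a complex that halts translation of inflammatory messages in human macrophages, changed by -0.74 ± 0.26 (adjusted p = 0.0725). None of the 21 panel members found by symbol was called by limma in any of the 5 comparisons, and 6, 0, 3, 4 and 4 of them had an unadjusted p under 0.05, in the order of the comparisons above. Of all 9775 genes, 2742, 1227, 2581, 1639 and 2596 did, in the same order. Rpl36al1, which the panel holds under its older name, was called as described.

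The genes that build and use ribosomes were counted in the same fit. Of 57 ribosome assembly genes, 0 were higher and 10 lower in hypoxia than in normal animals, beside 11.5% lower over all genes. They included Ncl, the nucleolar protein nucleolin (-1.33 ± 0.19, adjusted p = 0.000217), Fbl, the methyltransferase fibrillarin (-0.80 ± 0.19, adjusted p = 0.009) and Rrs1, an assembly factor of the large subunit (-2.28 ± 0.42). Of 35 translation initiation genes, 0 were higher and 9 lower, among them Eif3a, a scaffold subunit of eIF3 (-1.21 ± 0.21), and Eif4b, a helper of the helicase eIF4A (-1.53 ± 0.31). Of 16 elongation and termination genes, 0 were higher and 3 lower, with Eef2, the translocation factor, at -0.89 ± 0.27 and its kinase Eef2k at -1.72 ± 0.24. RNA polymerase I and its factors had 1 higher and 1 lower of 12, and the signalling list 0 and 2 of 13. The members' median was 0.11, the medians of these 5 lists ran from -0.55 to -0.36, and that of all genes was -0.39.

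In SuHx against hypoxia, which shares the hypoxia animals, 7 initiation genes were higher and 0 lower, 3 elongation genes were higher and 0 lower, and 3 assembly genes were higher and 0 lower. The signalling list had 2 higher and 0 lower, and polymerase I and its factors 0 higher and 1 lower. Over all genes 9.78% were higher and 1.79% lower. The members' median was -0.03, those of the 5 lists, in this order, were 0.55, 0.39, 0.26, 0.59 and -0.02, and that of all genes was 0.26. In SuHx against normal, 0 genes of the 5 lists passed (limma). At an unadjusted p under 0.05 there were 10 assembly, 3 initiation, 2 elongation, 1 polymerase I and 3 signalling genes, beside 1227 of all 9775 genes. In SuHx + carvedilol against normal, 6 assembly genes were lower and 0 higher, beside 8.75% lower over all genes, among them Nop56 (-0.94 ± 0.24), a core protein of small nucleolar particles. There 1 initiation gene was higher and 1 lower, and Eef1a2, the elongation factor form of muscle and nerve, was higher by 2.02 ± 0.41 (adjusted p = 0.0031). In SuHx + carvedilol against SuHx, 0 passed (limma), and the unadjusted counts were 7, 5, 3, 1 and 1 in the same order of lists, beside 1639 of all 9775 genes.

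Mitochondrial ribosomal protein genes, which serve translation inside mitochondria, were the closest set for comparison. In SuHx + carvedilol against normal, 9 of 70 cytosolic members were lower, with a median change of -0.26, and 15 of 67 mitochondrial genes were lower and 0 higher, with a median of -0.55. Over all genes 8.75% were lower, with a median of -0.32. Mrps16 (-2.33 ± 0.44) and Mrpl51 (-1.25 ± 0.25) were 2 of the mitochondrial ones. In hypoxia against normal, 1 mitochondrial gene was higher and 3 lower (median -0.16), beside 0.890% higher and 11.5% lower over all genes. In SuHx against hypoxia 2 were higher and 6 lower (median -0.15), beside 9.78% higher and 1.79% lower over all genes. The difference between the 2 families was not tested.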

How the data were processed

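The deposited values, log2 ratios of Cy5 (animal) over Cy3 (reference) per spot and array, were normalised within arrays by lowess with the marray package, per the series' design text, after GenePix scanning. The log2 base was taken from their range (-13.6 to 14.0), since a deposited table of the same values is titled log10. For background correction and spot filters, no step is given in the sources used here. Of all cells, 34.9% were empty. Spots of a probe and arrays of an animal were averaged. A probe needed values in at least 4 of 6 animals of every group. Probes of a gene were set relative to the mean of their group means and averaged, giving 9775 genes. All 24 animals were fitted with 1 mean per group (R 4.3.3, limma 3.58.1: lmFit, contrasts.fit, eBayes, 20 residual degrees of freedom), with Benjamini-Hochberg adjustment over all genes and calls under 0.05, two-sided. Of the array's spots, 25353 had 1 gene, 48 several and 17978 none in the array annotation; 6 spots with several genes, a member among them, were left out, and 1 symbol was updated through RefSeq. Start sites came from RefSeq (GRCr8).

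Members, lists and tests were chosen with earlier results of these data known. Named were the called members, a fixed panel and members whose probes disagreed. Some others with large changes, a low unadjusted p or no overlap were picked after their values were seen. Checks of single genes under other settings covered only the called members, in the comparison where each was called, and the panel. No explanation was weighed and no list was tested as a set. Replicates are animals, called 1 to 6 within each group in the order of their label numbers.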

Additional observations from a re-analysis of the deposited data

Results flagged for a closer look

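Examined were the member median, the called members and the panel, or 34 measures in 4 groups each. Of these 136 groups of 6 animals, 7, or 5.15%, had a highest or lowest animal set apart by more than Dixon's limit. Chance flags about 1 in 20 groups, so the share is close to that of chance. The median over the ribosomal protein genes was -1.24 in hypoxia animal 5, with the next animal at -0.50, and Rpl5 was -2.43 in the same animal, with the next at -1.50. Several members shared a level near -1.24 in that animal, as given above. In normal animal 3, Rpl5 was -1.55 (next -0.94) and Rpsa was -1.83 (next -1.56). SuHx + carvedilol animal 1 had Rplp0 at -2.25 (next -1.78). SuHx + carvedilol animal 6 was the highest of its group for Rps29, at -0.0865 (next -0.65), and for Rpl34, at -0.71 (next -1.07).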

How the results depend on the processing

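No call changed direction under any alternative that was run. The count of called members, 3 in hypoxia against normal, was 6 with quantile normalisation, 5 with arrays scaled to equal spread, 7 with probes on every array, 7 with each probe on its own, 0 with only the 2 groups and 1 with 2 hypoxia arrays, those poorest in values, left out. In SuHx against normal, 0 became 4 with animal weights. In SuHx against hypoxia, 3 became 6 with probes on every array, 7 with each probe on its own, 5 with technical array 1 of each animal and 0 with only the 2 groups. In SuHx + carvedilol against SuHx, 0 became 1 with probes on every array, 1 with each probe on its own and 2 with animal weights. In SuHx + carvedilol against normal, 9 became 3 with technical array 1, 15 with animal weights and 0 with the label number as a covariate, where the median change was 0.0513 (-0.26 without it). The cause was not tested. Leaving out 1 animal gave 2 to 5 calls in hypoxia against normal (5 without hypoxia animal 5), 0 to 0 in SuHx against normal, 2 to 5 in SuHx against hypoxia (5 without hypoxia animal 3), 0 to 2 in SuHx + carvedilol against SuHx (2 without SuHx + carvedilol animal 2) and 7 to 10 in SuHx + carvedilol against normal. The medians then ran from 0.01 to 0.23, from -0.04 to 0.06, from -0.19 to 0.06, from -0.39 to -0.26 and from -0.28 to -0.20. A plain mean of probes, chosen after seeing the data, gave 3, 0, 4, 0 and 9 calls. With the replicate number as a block the counts were 3, 0, 3, 0 and 9, as without it; the number is only an animal's place in its group, and the deviations of same-numbered animals correlated between -0.26 and 0.18. In SuHx against normal, 4 of 6 SuHx animals correlated best with the normal animal of the same number, and 3 of the 6 pairs exceeded 0.1. At most 2 of 6 did so in the other comparisons, in which at most 1 pair exceeded 0.1. The cause of this was not tested. Probes with missing arrays limit what can be said of Rpl4 and Rpl30, and arrays of 1 animal differing as much as animals limits every median given here.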
